A study of Mus musculus with 24 samples.

Results

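Dio1, Nat8, Aldh3a2, Aatk and Clstn3 are 5 genes of liver metabolism, kinase signalling and cell adhesion whose transcripts were lower in livers with hepatocyte deletion of Arntl on every matched pair of arrays, with Cy5 read as the sample, which opposes the labels. They were chosen by their log2 ratios on these arrays, for a large negative difference in all 12 pairs, and are 5 of 18967 genes with a measured probe. Each is measured by a single spot of 1 probe, so whether probes of a gene go together cannot be asked. The Nat8 probe is called Cml4 in the scanner files and was matched to Nat8 through its transcript accession in RefSeq, while the other probes carry the gene's present name. All 5 probes passed the filter on low signal, so every member enters every count below.

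Two-colour Agilent arrays were used to measure C57Bl/6J mouse liver RNA. The control mice, Mop3fxfx, carry Arntl (Mop3, also called Bmal1) flanked by loxP sites, and the Mop3fxfxCreAlb mice carry in addition Cre recombinase under the albumin promoter, which acts in hepatocytes and leaves the gene intact in the other cells of the liver. They are called floxed and Cre livers here. Both genotypes were sampled at 10 and at 20 weeks of age and at ZT0, 4, 8, 12, 16 and 20, where ZT0 is lights on. Each of the 24 arrays holds 1 genotype, age and time as a pool of at least 3 mice, hybridised with one reference RNA, pooled from both genotypes at 10 weeks. There are 12 arrays per genotype and 6 per genotype and age. Mice with the Cre transgene and an unfloxed Arntl were not among the groups, so the transgene and the loss of Arntl cannot be told apart.

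Arntl pairs with Clock or Npas2 on E-box elements and drives the genes of the daily clock, including repressors that close the loop and regulators of liver metabolism. Dio1 encodes the type 1 deiodinase, a selenoenzyme that converts thyroxine into active T3 in liver and kidney and is itself induced by thyroid hormone. Nat8 encodes an N-acetyltransferase of the endoplasmic reticulum that acetylates cysteine conjugates, the last step of the mercapturate pathway that clears electrophiles as glutathione products. Aldh3a2 encodes the fatty aldehyde dehydrogenase, which oxidises long-chain aldehydes from fatty alcohol, ether lipid, phytol and sphingolipid breakdown and is a known target of the nuclear receptor PPARA. Aatk encodes a membrane-anchored kinase of the lemur family, best known from neurons, where CDK5 phosphorylates it. Clstn3 encodes calsyntenin-3, a cadherin-like adhesion protein of synapses, and its locus also gives an adipocyte protein of the lipid droplet, Clstn3b, which the array does not separate by name.

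The sequence that stands for each gene shows what was measured. The 5′ 30 bases of each 60-base probe, as the scanner files give them, are as follows.
Dio1: accatcttgaaatagattgcactaggaatc
Nat8: cccttctgctcaaaaatatgagttgtgatc
Aldh3a2: agaacgaatcattggccggttatagcaata
Aatk: atggggcgattctaagttattgttgccaaa
Clstn3: gcagctcctgtgtttctgtgtgcagctcac
Nat8 belongs to a cluster of close relatives on chromosome 6, so its probe was compared with the 9 probes of those relatives on the array. The longest run of bases that any of them shares with the Nat8 probe is 8. Only probes were compared, since whole transcripts of the relatives were not at hand. Whether the Nat8 probe also binds RNA of a relative was thus not tested. The RefSeq annotation of GRCm38.p6 places Dio1 on chromosome 4 (107291465 to 107307168), Nat8 (85830387 to 85836857) and Clstn3 (124430756 to 124464784) on chromosome 6, and Aldh3a2 (61223417 to 61267528) and Aatk (120007311 to 120047183) on chromosome 11. Nat8 and its relative Nat8f5 (85817218 to 85820972) lie close together.

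Since the Arntl dimer binds E-boxes, the RefSeq promoter windows of the 5 genes, which run from 250 bases before to 50 after an annotated start site, were searched on both strands for the canonical E-box CACGTG. All 5 genes have a window in that set, with 10 windows in all. Aldh3a2 and Aatk hold an E-box, shown in capitals with 12 bases on each side.
Aldh3a2: gggcctcatagtCACGTGcagcagctcagc
Aatk: aggaggcagagtCACGTGgcatcccccatc
The Aldh3a2 stretch is chr11:61267199-61267228 on the minus strand, with an E-box that begins 30 bases before the start site of the only window of this gene. The Aatk stretch is chr11:120041862-120041891 on the minus strand, with an E-box that begins 98 bases before the start site in 1 of 4 windows of this gene. Among all 32851 windows 7.15% hold CACGTG, and among all genes in that set 8.09% have at least 1 such window. None of the 10 windows holds the D-box TTATGTAA (0.938% of all windows) or TTACGTAA (0.119%), the ROR element TAGGTCA (2.61%), or the direct repeats of AGGTCA called DR1 (0.0396%) and DR4 (0.0152%), which PPARA and thyroid hormone receptors bind. A match is a run of letters, and no binding was measured.

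By the labels Cy3 marks the liver sample and Cy5 the common reference. The arrays themselves went the other way. On each of the 6 slides with several arrays, 87.5 to 93.6% of probes varied more from array to array in Cy5. Every value below is therefore log2(Cy5/Cy3) with Cy5 read as the sample, against the labels. If the labels are right, all signs turn and the 5 genes are higher in Cre livers. Correlations between arrays over the 27847 filtered probes went down to -0.26. The 5 probes show the same split between channels when each channel is normalised on its own. The Cre minus floxed difference in Cy5 was -1.78 for Dio1, -2.99 for Nat8, -1.99 for Aldh3a2, -2.30 for Aatk and -1.80 for Clstn3. In Cy3 it was 0.27, 0.03, 0.26, -0.16 and 0.06 for the same genes. The spread over the 24 arrays was an SD of 1.06 to 1.70 in Cy5 and of 0.14 to 0.32 in Cy3.

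**Figure D1:**
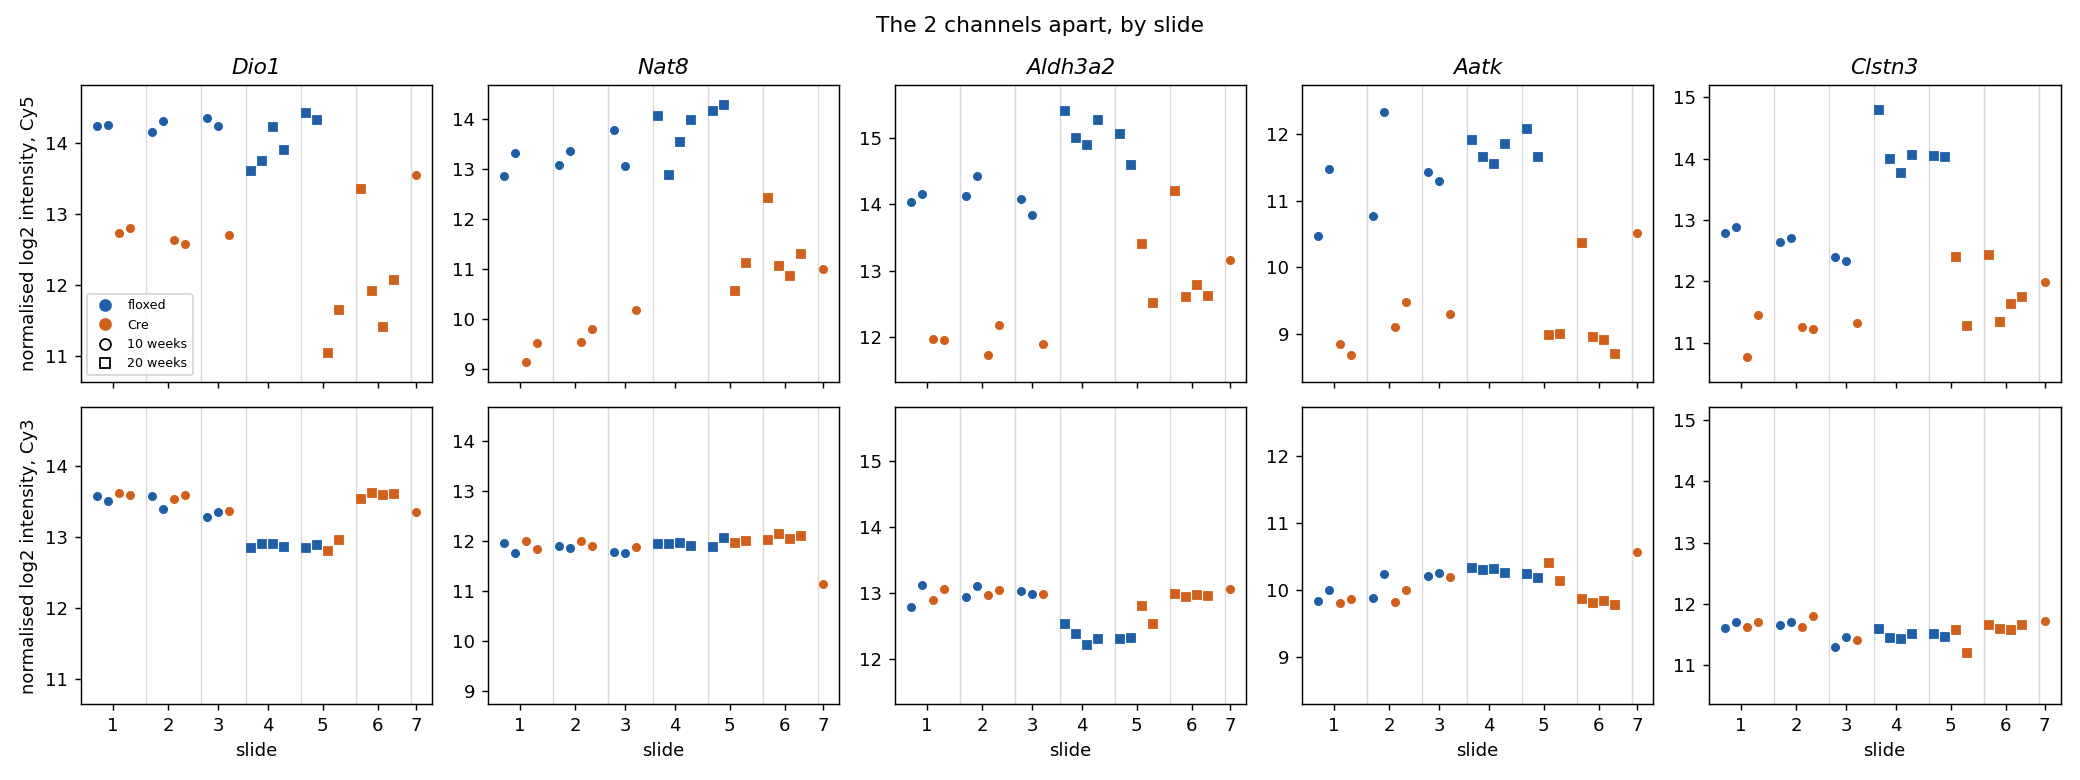
Normalised log2 intensity of the 5 probes in Cy5 (top row) and Cy3 (bottom row), each channel quantile-normalised over the arrays; each point is 1 array, arranged by slide 1 to 7, blue for floxed and orange for Cre livers, circles for 10 and squares for 20 weeks. The genotypes part in Cy5 for all 5 genes, while Cy3 moves with the slide, most visibly for Dio1 and Aldh3a2 on slides 4 and 5.

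Arrays were on 7 slides, and age goes with the slide. The 10-week arrays are on slides 1, 2, 3 and 7 and the 20-week arrays on slides 4, 5 and 6, with no slide shared between the ages, so age and slide cannot be told apart. At 20 weeks slide 4 holds only floxed and slide 6 only Cre livers, and slide 5 holds both. The Cre array of 10 weeks ZT16 is alone on slide 7, and by the file headers also alone in its scan date and protocol. It had the lowest median intensity of all arrays in both channels. The median spot of an array had an intensity of 62.4 to 154.1 in the Cy3 channel and 78.1 to 241.3 in the Cy5 channel, and 57.3 to 70.9% of probes were well above background in Cy5.

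Arntl, the deleted gene, had an amplitude of 1.69 ± 0.17 (SE of the fit, log2, mean to peak) over the day in floxed livers and 0.22 ± 0.17 in Cre livers. Its rhythm differed between the genotypes (limma adjusted p = 0.031). Where the Arntl probe lies relative to the floxed exon is not known here. Of 7 hepatocyte markers tested, 0 rose and 0 fell (limma, adjusted p under 0.05), with a median of -0.08, and all were well above background on all 24 arrays. Their summed normalised Cy5 signal was very high, 378482 to 416115 in floxed and 364796 to 417999 in Cre livers. Saturation of these spots was not counted, and spots near saturation can hardly show a change.

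Each of the 5 probes was well above background in both channels on all 24 arrays, and none was saturated or flagged as an outlier on any array. Dio1 had a raw Cy5 intensity of 10551 to 27100 in floxed and of 1367 to 9355 in Cre livers. Nat8 had 7787 to 24892 and 702 to 2274, and Aldh3a2 had 17822 to 51422 and 3681 to 11496. For these genes the raw ranges of the genotypes were apart without any normalisation. Aatk had 1564 to 4937 in floxed against 195 to 916 in Cre livers, and Clstn3 had 6025 to 24681 against 1580 to 5972. The same thus held, for Clstn3 only narrowly. The genes were chosen for low ratios in Cre livers on these arrays, and the share of all probes with raw ranges apart was not counted. In Cy3 the raw ranges of the genotypes overlapped for each gene, from 3900 to 24159 in floxed and from 3537 to 24951 in Cre livers for Dio1, for example. Precision is limited by how many arrays there are.

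Dio1 was close to the reference pool in floxed livers and well below it in Cre livers. At 10 weeks its log2 ratio was 0.03 at the lowest (ZT4), 0.28 at the median and 0.67 at the highest (ZT0) in floxed livers. In Cre livers it was -1.53 (ZT12), -1.31 and -0.24 (ZT16). At 20 weeks it ran from 0.23 over a median of 0.73 to 1.05 in floxed livers and from -2.70 over -2.11 to -0.72 in Cre livers. The lowest Dio1 level of the series was that of the Cre array at 20 weeks ZT16, and the genotypes did not overlap. As a description of what chose the gene, Cre minus floxed was -2.05 ± 0.22 (SE of the fit, 12 arrays per genotype). Pair by pair it went from -0.73 at 10 weeks ZT16 to -3.75 at 20 weeks ZT16, a level 1.66-fold and 13.5-fold lower.

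Nat8 had the largest difference of the 5, -2.97 ± 0.25. At 10 weeks floxed livers ran from 0.39 (ZT8) over a median of 0.92 to 1.57 (ZT0), and Cre livers from -3.28 (ZT8) over -2.55 to -0.50 (ZT16). At 20 weeks floxed livers ran from 0.49 (ZT4) over 1.62 to 1.80 (ZT16), and Cre livers from -1.80 (ZT0) over -1.46 to -0.10 (ZT8). The genotypes did not overlap, and 2 Cre arrays, 10 weeks ZT16 and 20 weeks ZT8, sat well above the other 10. In the pairs that hold those arrays Nat8 was 2.60-fold and 2.37-fold lower. In the other 10 pairs it was between 3.63-fold and 14.2-fold lower.

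Aldh3a2 differed by -2.25 ± 0.18, and it is the member whose genotypes overlapped. At 10 weeks floxed livers were within a narrow band of 0.47 to 0.70 (median 0.62), and Cre livers ran from -1.73 over -1.45 to -0.35. At 20 weeks the whole range was higher, 1.81 to 2.50 (median 2.25) in floxed and -0.83 to 0.64 (median -0.60) in Cre livers. The Cre array of 20 weeks ZT8, at 0.64, was above the lowest floxed array, at 0.47, which is of 10 weeks, so the overlap is between ages and not within one. The smallest pair difference was -0.82 (10 weeks ZT16) and the largest -3.32 (20 weeks ZT12).

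Aatk differed by -2.11 ± 0.17. At 10 weeks floxed livers ran from 0.22 (ZT8) over a median of 0.74 to 1.67 (ZT12), and Cre livers from -1.64 (ZT20) over -1.16 to -0.43 (ZT16). At 20 weeks floxed livers ran from 0.85 over 1.11 to 1.44, and Cre livers from -1.77 over -1.39 to 0.05 (ZT8). The genotypes did not overlap, with 0.17 between the lowest floxed and the highest Cre array. The pair of 20 weeks ZT8 had the smallest difference, -0.80, and that of 20 weeks ZT0 the largest, -2.91. The RefSeq annotation places the microRNA gene Mir338 inside the Aatk locus (chromosome 11, 120014765 to 120014862), and its level is not analysed here.

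Clstn3 differed by -1.86 ± 0.17. At 10 weeks floxed livers ran from 0.47 over a median of 0.59 to 0.72, and Cre livers from -1.24 (ZT8) over -0.76 to -0.13 (ZT16). At 20 weeks floxed livers ran from 1.91 over 2.13 to 2.75 (ZT0), and Cre livers from -0.69 (ZT12) over -0.36 to 0.42 (ZT0). The genotypes did not overlap over all arrays, by a gap of 0.05, and within each age the lowest floxed array was above the highest Cre array. The pair differences went from -0.60 (10 weeks ZT16) to -2.81 (20 weeks ZT12).

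The choice of these genes fixes their direction, so it is given beside the whole array and not tested. Of 27847 probes 2.71% were lower in Cre livers in all 12 pairs, and 0.144% had all Cre arrays below all floxed arrays, which Dio1, Nat8, Aatk and Clstn3 did. The genotype difference passed limma for 21.7% of the probes, 11.1% lower and 10.6% higher. Among genes lower in all 12 pairs, Nat8, Aldh3a2, Aatk, Dio1 and Clstn3 took ranks 2, 4, 5, 6 and 9 by size. Just outside was As3mt, an arsenic methyltransferase, at -1.81 ± 0.18, against -1.86 for Clstn3. The median of all probes was -0.01.

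**Figure D2:**
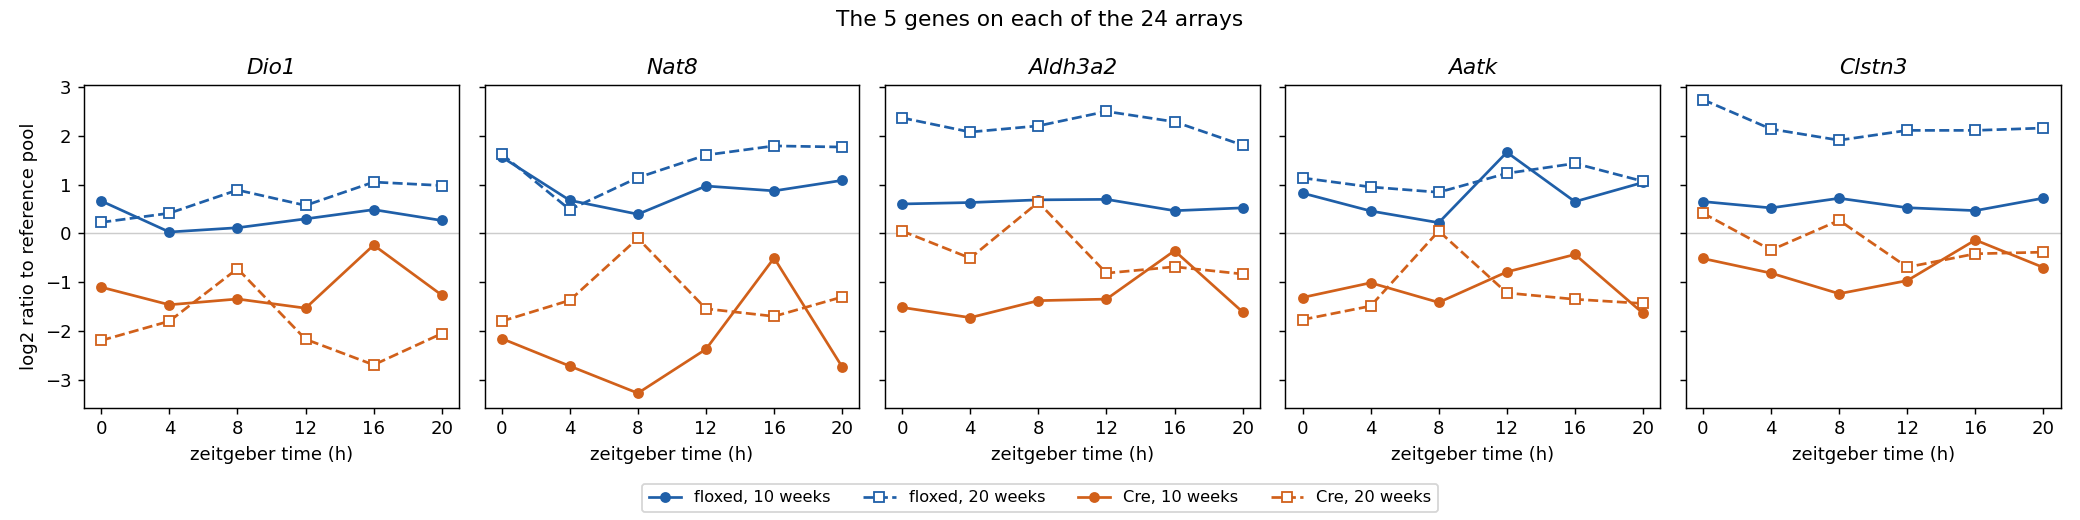
Log2 ratio of sample to reference pool of the 5 genes (1 panel each) against zeitgeber time; each point is 1 array of pooled livers, blue for floxed and orange for Cre livers, filled circles with solid lines for 10 weeks and open squares with dashed lines for 20 weeks. Cre livers lie below floxed livers of the same age and time at every point, and the orange lines come nearest to the blue ones at ZT16 of 10 weeks and ZT8 of 20 weeks.

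The time of day was asked next, as livers were sampled every 4 h through the day. None of the 5 genes had a called daily rhythm in floxed livers (limma F test of a 24 h cosine, adjusted p from 0.73 to 0.97), where 1.39% of all probes did and 13 of 19 core clock genes did. Nat8 had the largest fitted amplitude among the 5, 0.42 ± 0.25 with a peak at ZT 18.8, and Aldh3a2 the smallest, 0.12 ± 0.18. These amplitudes are small against the genotype differences of the same genes. In Cre livers amplitudes ran from 0.15 to 0.41 and none was called (adjusted p from 0.64 to 0.98). There limma called 0% of all probes, with 2406 at an unadjusted p under 0.05. The difference in rhythm between the genotypes was called for none of the 5 (unadjusted p from 0.17 to 0.99) and for 0.0287% of all probes. An amplitude of 0.42 was called in floxed livers for Sgpl1, a gene of the sphingolipid list with a smaller spread (adjusted p = 0.0044), so what could be detected differed with the spread of each probe. A p that misses the threshold does not show that a rhythm is absent.

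At each time the genotype difference is known from 1 pair at each age. Averaged over the ages, Dio1 was lower by between -1.54 (ZT8) and -2.29 (ZT12), Nat8 by -2.44 (ZT16) to -3.58 (ZT0) and Aldh3a2 by -1.82 (ZT8) to -2.68 (ZT12). Aatk was lower by between -1.22 (ZT8) and -2.60 (ZT20), and Clstn3 by -1.57 (ZT16) to -2.15 (ZT12). For all 5 genes the smallest mean was thus at ZT8 or ZT16, the times of the 2 Cre arrays that stood apart. At ZT16, which includes the 10-week array that stood apart, the ages differed by 3.02 for Dio1, 2.12 for Nat8, 2.16 for Aldh3a2, 1.70 for Aatk and 1.93 for Clstn3. At other times the ages could be close, as for Dio1 at ZT8 with 0.15. With 1 pair per age and time the order of the times was not tested.

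The Cre array of 10 weeks ZT16 and that of 20 weeks ZT8 were nearer to floxed livers for all 5 genes. On a scale where 0 is the mean of the floxed and 1 the mean of the other Cre arrays of that age, the 10-week ZT16 array was at 0.33 for Dio1, 0.40 for Nat8, 0.45 for Aldh3a2, 0.61 for Aatk and 0.51 for Clstn3. The 20-week ZT8 array was at 0.49, 0.51, 0.57, 0.41 and 0.78 for the same genes. Over the other probes with a genotype difference of at least 1, the same arrays were at 0.59 and 0.66, against a median of 0.97 over the 12 Cre arrays. They were not alone in this, since the Cre array of 20 weeks ZT0 was at 0.49 over those probes and the floxed array of 20 weeks ZT0 at 0.53. For the 5 genes that Cre array of ZT0 was at 1.12, 1.23, 0.82, 1.31 and 0.71. The Arntl ratio of the arrays of 10 weeks ZT16 and 20 weeks ZT8, -0.52 and -0.49, was within the range of the other Cre arrays, -0.90 to 0.52. That range does not tell the genotypes apart, since it also holds the floxed arrays of 10 weeks ZT16 (0.24) and ZT4 (0.49). Without both arrays the genotype difference was -2.28 for Dio1, -3.28 for Nat8, -2.45 for Aldh3a2, -2.29 for Aatk and -2.00 for Clstn3. In no gene did the genotypes then overlap, which leaving out Cre arrays that lie near floxed livers makes likely. The share of all probes without overlap was not counted in this setting. Both arrays were singled out after the members' values were seen. That of 10 weeks ZT16 was alone on its slide and alone in its scan date and protocol. That of 20 weeks ZT8 had the fewest saturated Cy5 spots of all arrays, 55. What sets these arrays apart was not tested.

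Levels at 20 against 10 weeks differed among the 5 genes. Aldh3a2 rose by 1.29 ± 0.18 (limma adjusted p = 4.8e-05), Clstn3 by 1.07 ± 0.17 (adjusted p = 0.00017) and Nat8 by 0.73 ± 0.25 (adjusted p = 0.032), over 12 arrays per age. Dio1 had -0.20 ± 0.22 and Aatk 0.10 ± 0.17, and neither passed. In Cy5 alone Dio1 fell by 0.57 ± 0.19 (limma adjusted p = 0.022), a setting that called 40.6% of all probes. In the main fit 30.5% of all probes were called, 16.9% higher and 13.6% lower at 20 weeks, so a called age difference is common on these slides. In floxed livers alone the rise was 1.61 ± 0.23 for Aldh3a2 and 1.60 ± 0.18 for Clstn3. In Cre livers it was 0.97 ± 0.23 and 0.54 ± 0.18. With the slide as a random block Nat8 had 0.62 ± 0.36 (adjusted p = 0.29), while Aldh3a2 and Clstn3 kept their call. That setting called 9.09% of all probes.

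The channels bear on these age values differently from gene to gene. For Clstn3 the normalised Cy3 level was near-constant, 11.4 to 11.7 over the slide means, a range of 0.34 against a median range of 0.41 over all probes. Its Cy5 level rose from 12.6 ± 0.22 to 14.1 ± 0.35 in floxed livers (SD, n = 6 arrays) and was 11.3 ± 0.39 and 11.8 ± 0.51 in Cre livers. For Aldh3a2 the Cy3 level was 12.4 and 12.5 on slides 4 and 5 and between 13.0 and 13.1 on the others, a range of 0.70. Its Cy5 level was 14.1 ± 0.19 at 10 and 15.0 ± 0.28 at 20 weeks in floxed livers. For Dio1 the Cy3 level was 12.9 on slides 4 and 5 and between 13.3 and 13.6 on the others, a range of 0.71. Nat8 had a range of 0.94, with 11.1 on slide 7 and 11.8 to 12.1 elsewhere, and Aatk of 0.74. Ranges at least as large had 7.42% of all probes for Nat8, 15.9% for Dio1, 16.7% for Aldh3a2 and 14.2% for Aatk. The share of these Cy3 shifts in the ratios was measured only by using Cy5 alone.

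Whether the genotype difference itself changed with age is a question the choice of genes did not use, beyond asking for a lower level in every pair. Clstn3 is the member for which limma called a change: -1.33 at 10 and -2.39 at 20 weeks, which is -1.06 ± 0.25 (limma adjusted p = 0.019). The 6 pair differences had a mean of -1.33 ± 0.44 (SD) at 10 and -2.39 ± 0.40 at 20 weeks. The difference was larger at 20 weeks at 5 of 6 times, ZT8 being the exception (-1.96 and -1.65). An exact permutation test of the 6 against 6 pair differences gave p = 0.0043 (two-sided, smallest possible p = 0.0022). At 20 weeks the arrays of a pair were always on different slides, and at 10 weeks only those of ZT16 were. The permutation thus sets pairs across slides against pairs mostly within slides, and cannot separate this from age. The Clstn3 level rose by 1.60 from 10 to 20 weeks in floxed livers and by 0.54 in Cre livers. Among all probes 9.05% were called for such a change, 6.13% towards a more negative and 2.92% towards a more positive difference at 20 weeks, and 1 call in 5 genes is too few to set apart from that share.

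Dio1 came next, with -1.47 ± 0.39 (SD of 6 pairs) at 10 and -2.63 ± 0.73 at 20 weeks. The difference was larger at 20 weeks at 6 of 6 times, with an exact permutation p = 0.0065, but the change of -1.16 ± 0.37 did not pass limma (adjusted p = 0.053). Here the level in floxed livers changed by 0.38 ± 0.26 and in Cre livers by -0.78 ± 0.26. Aldh3a2 had -1.93 ± 0.55 and -2.57 ± 0.60 (exact permutation p = 0.087), and Aatk -1.91 ± 0.62 and -2.32 ± 0.77 (exact permutation p = 0.35). Nat8 had the other sign, from -3.23 ± 0.92 to -2.71 ± 0.93 (exact permutation p = 0.28), with limma adjusted p = 0.55. The exact p-values are unadjusted, over 5 tests, and each sets pairs across slides against pairs mostly within slides.

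The call for Clstn3 depends on the slides and on the 2 Cre arrays named above. With the slide as a fixed block its change was -0.77 (adjusted p = 0.29), as a random block -0.95 (adjusted p = 0.070) and in Cy5 alone -1.02 (adjusted p = 0.11). Without the Cre arrays of 10 weeks ZT16 and 20 weeks ZT8 it was -1.06 ± 0.18 with an unadjusted p = 1.98e-05, yet an adjusted p = 0.053, since only 0.0215% of all probes then passed. The exact permutation of the remaining 5 against 5 pairs gave p = 0.0079 for Clstn3 and for Dio1, the smallest that 5 against 5 can give. In it all pairs of 10 weeks are within a slide and all pairs of 20 weeks across slides. Dio1 kept its negative change under all these settings, and passed with the pairs as a replicate block (-1.16, adjusted p = 0.021), under which 18.4% of all probes were called. With median centring in place of loess 4 of 5 genes passed, Dio1 with -2.13, Clstn3 with -2.04, Aldh3a2 with -1.59 and Aatk with -1.35, and Nat8 turned to -0.44, but 42.1% of all probes were then called. The reference channel moved with the slides here. At 20 weeks the Cy3 level of Dio1 and Aldh3a2 was lower on slides 4 and 5, which hold all floxed arrays, than on slide 6, which holds 4 of 6 Cre arrays. In Cy5 alone the change was -0.70 for Dio1 and -0.05 for Aldh3a2 (adjusted p = 0.33 and 0.96).

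**Figure D3:**
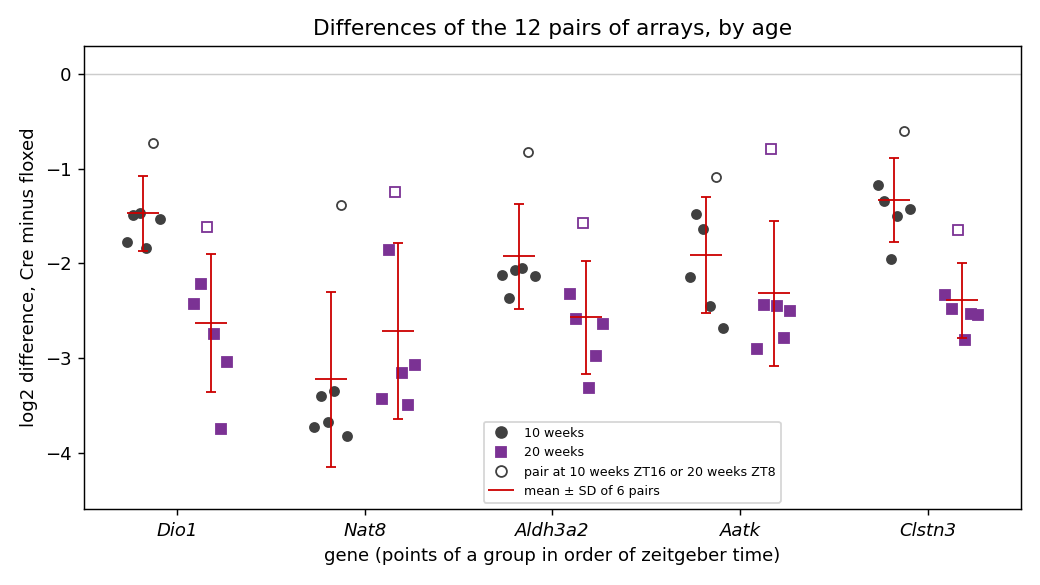
Cre minus floxed log2 difference of each pair of arrays of 1 age and time, by gene; circles are the 6 pairs of 10 weeks, squares the 6 pairs of 20 weeks, open symbols the pairs of 10 weeks ZT16 and 20 weeks ZT8, and red bars the mean ± SD of 6 pairs. All 60 points are below 0, the squares of Clstn3 and Dio1 lie mostly lower than their circles, and the open symbol is the one nearest to 0 in every group.

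The genotypes were also compared within the slides that hold both. On slide 1 (ZT8 and ZT20, 2 arrays per genotype) they were -1.50 for Dio1, -3.75 for Nat8, -2.10 for Aldh3a2, -2.16 for Aatk and -1.69 for Clstn3. On slide 2 (ZT4 and ZT12) they were -1.66, -3.37, -2.20, -1.97 and -1.42, and on slide 3 (ZT0) -1.77, -3.73, -2.12, -2.14 and -1.17. Every gene was lower in Cre livers on each of these slides, a direction that the choice of genes fixed. Each of these values is a pair difference, or a mean of pair differences, that was chosen to be negative. At 20 weeks slide 5 held both genotypes, floxed livers of ZT16 and ZT20 and Cre livers of ZT0 and ZT4, and gave -3.02 for Dio1, -3.37 for Nat8, -2.28 for Aldh3a2, -2.88 for Aatk and -2.10 for Clstn3. On that slide genotype and time cannot be told apart, and each gene except Nat8 had a larger difference there than on any 10-week slide.

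Genes with the most similar profile to each member were sought by Pearson's r over the 24 arrays. The mean of each genotype and age was first removed, which takes away the mean difference that chose the genes. It does not take away how near single Cre arrays lie to floxed livers, so genes lowered in Cre livers can go together through those arrays. Dio1 went most with Sar1b (r = 0.81), a GTPase of the vesicles that export lipoproteins, with Atp12a (r = 0.77) and with Armcx6 (r = 0.77). For Nat8 these were Proca1 (r = 0.77), Ogfod1 (r = 0.76) and its neighbour Nat8f5 (r = 0.74). Nat8f5 followed Nat8 within floxed livers (r = 0.91) and within Cre livers (r = 0.67). For Aldh3a2 they were Fam107b (r = 0.77), the peroxisomal thiolase Acaa1b (r = 0.76) and Cpox, an enzyme of haem synthesis (r = 0.75). For Aatk they were Muc3 (r = 0.77), Cys1 (r = 0.74) and Col27a1 (r = 0.71), and for Clstn3 Col15a1 (r = 0.80), Pih1d2 (r = 0.80) and AU040320 (r = 0.78). Without the 2 arrays farthest from the member's median these r lay between 0.50 for Proca1 and 0.78 for Nat8f5. The genotype differences of the named genes ran from -1.87 for Nat8f5 and -1.60 for Col27a1 to 0.14 for Muc3, the only one above 0. The arrays share slides and a reference, and these r are the highest of all genes, so they are a description.

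The deviations of the 5 genes from their group means were also set against each other, as a description. Dio1 and Nat8 had r = 0.86 over 12 Cre and 0.54 over 12 floxed arrays, and Nat8 and Aatk had 0.79 and 0.48. Dio1 and Aldh3a2 had 0.81 in Cre but -0.39 in floxed livers, and Dio1 and Clstn3 had 0.62 and -0.54. Over all 24 arrays Dio1 and Aldh3a2 had r = 0.63, and without the 2 arrays farthest from the Dio1 median 0.03. That relation thus rests on those 2 arrays. The other pairs named here also fell when the 2 arrays farthest from the first gene's median were left out. Over all arrays and without those 2, Dio1 and Clstn3 had r = 0.38 and -0.06, Dio1 and Nat8 0.78 and 0.54, and Nat8 and Aatk 0.70 and 0.49.

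The pathways around each gene were followed with lists of related genes, chosen with earlier results of these data known and tested for the mean genotype difference with limma over all probes. Of 17 tested genes of thyroid hormone supply 2 rose and 2 fell, a share close to that of the array as a whole (10.6 and 11.1%), and the median was -0.15. Sult1a1, a sulfotransferase, fell by 1.59 ± 0.16 (adjusted p = 1.1e-06) and the corepressor Ncor1 by 0.26 ± 0.08, although the 7 Ncor1 probes ran from -0.26 to 0.27. The organic anion transporter Slco1a4 rose by 0.61 ± 0.22. The other deiodinases, Dio2 (-0.15 ± 0.12) and Dio3 (-0.05 ± 0.04), and the receptors Thra (-0.08 ± 0.13) and Thrb (0.14 ± 0.14) did not pass. Of 10 genes that respond to thyroid hormone in liver 4 fell and 0 rose. These were Thrsp (-0.94 ± 0.18), a regulator of lipid synthesis that was saturated in Cy5 on 5 floxed arrays, the malic enzyme Me1 (-0.84 ± 0.14), the carnitine palmitoyltransferase Cpt1a (-0.77 ± 0.11) and the transcription factor Klf9 (-0.38 ± 0.12, second probe 0.03).

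Dio1 is also a selenoprotein, and of 18 other selenoprotein and selenocysteine genes tested 3 fell and 1 rose, with a median of -0.07. Gpx4 (-0.35 ± 0.10), a peroxidase of membrane lipids, Msrb1 (-0.26 ± 0.09, saturated in Cy5 on 10 floxed arrays) and the insertion factor Secisbp2 (-0.33 ± 0.11) fell, and Pstk rose by 0.22 ± 0.06, with its second probe at -0.01.

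The mercapturate pathway and the relatives of Nat8 had 6 of 11 tested genes lower and none higher, with a median of -0.34. Nat8f5 had the largest change, -1.87 ± 0.27 (adjusted p = 6.2e-05, lower in 11 of 12 pairs), followed by Nat8f2 (-0.79 ± 0.15, second probe -0.15), the glutamyl transferase Ggt6 (-0.65 ± 0.10) and Anpep (-0.55 ± 0.15), an aminopeptidase. Acy3 (-0.45 ± 0.10) and Nat8f4 (-0.34 ± 0.08) also fell, with the 4 Nat8f4 probes between -0.77 and -0.06. Nat8f1 had 0.21 ± 0.10 and did not pass, with Cy5 saturation on 12 of 12 floxed arrays. Of the probes of these relatives, those of Nat8f5 and Nat8f1 share the longest run with the Nat8 probe, 8 bases each. This compares probes and not transcripts, so a part of Nat8f5 RNA in the Nat8 signal was not tested.

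Of 18 other aldehyde dehydrogenases tested 2 fell and 1 rose, with a median of 0.03: Aldh4a1 (-0.74 ± 0.17, second probe 0.04) of proline breakdown, Aldh6a1 (-0.36 ± 0.10) of valine breakdown, and Aldh16a1 (0.69 ± 0.07). Of 10 genes of fatty alcohol and sphingolipid aldehyde metabolism, which make or feed the substrates of Aldh3a2, 3 rose and 0 fell. They were the sphingosine phosphate lyase Sgpl1 (0.41 ± 0.07, second probe 0.11), the lyase Hacl1 (0.44 ± 0.10) of phytanic acid oxidation and the fatty acyl reductase Far1 (0.32 ± 0.09, with 0.02 to 0.32 over 4 probes).

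Targets of PPARA, to which Aldh3a2 belongs, were mostly lower. Of 21 tested 14 fell and 1 rose, with a median of -0.40 against -0.01 for all probes. The acyl-CoA thioesterase Acot4 (-1.21 ± 0.15, second probe -0.54), the pantetheinase Vnn1 (-1.21 ± 0.17) and Acaa1b (-1.08 ± 0.13, saturated in Cy5 on 9 floxed arrays) fell and were lower in 12 of 12 pairs. Pdk4, a kinase that restrains glucose oxidation, rose by 1.50 ± 0.20 and was higher in 12 of 12 pairs. Ppara itself, named after its value was seen, fell by 0.80 ± 0.15.

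Of 7 genes of the lemur kinases and CDK5 tested beside Aatk, Cdk5 fell by 0.28 ± 0.08 and 0 rose. Lmtk2, the other lemur kinase tested, had -0.13 ± 0.07, and Cdk5r1, the activator of CDK5, 0.11 ± 0.06. Of 17 calsyntenin and lipid droplet genes 4 fell and 1 rose. Cidec (-2.26 ± 0.26), Cidea (-1.81 ± 0.38), Fitm1 (-1.33 ± 0.09) and Fitm2 (-0.49 ± 0.09, second probe -0.16) encode proteins that enlarge or form lipid droplets, and Abhd5, a co-activator of lipolysis, rose by 0.37 ± 0.11. Clstn1 (0.11 ± 0.12) and Clstn2 (0.18 ± 0.07) did not pass. In this list 2 of 17 genes had a called change of the genotype difference with age, against 9.05% of all probes. They were Cidea with -3.19 ± 0.26 (limma adjusted p = 3.5e-06) and Cidec with -1.67 ± 0.36 (limma adjusted p = 0.015). Other lists had such calls too, 4 of 18 aldehyde dehydrogenases and 4 of 21 PPARA targets. As for Clstn3, age and slide cannot be told apart here.

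**Figure D4:**
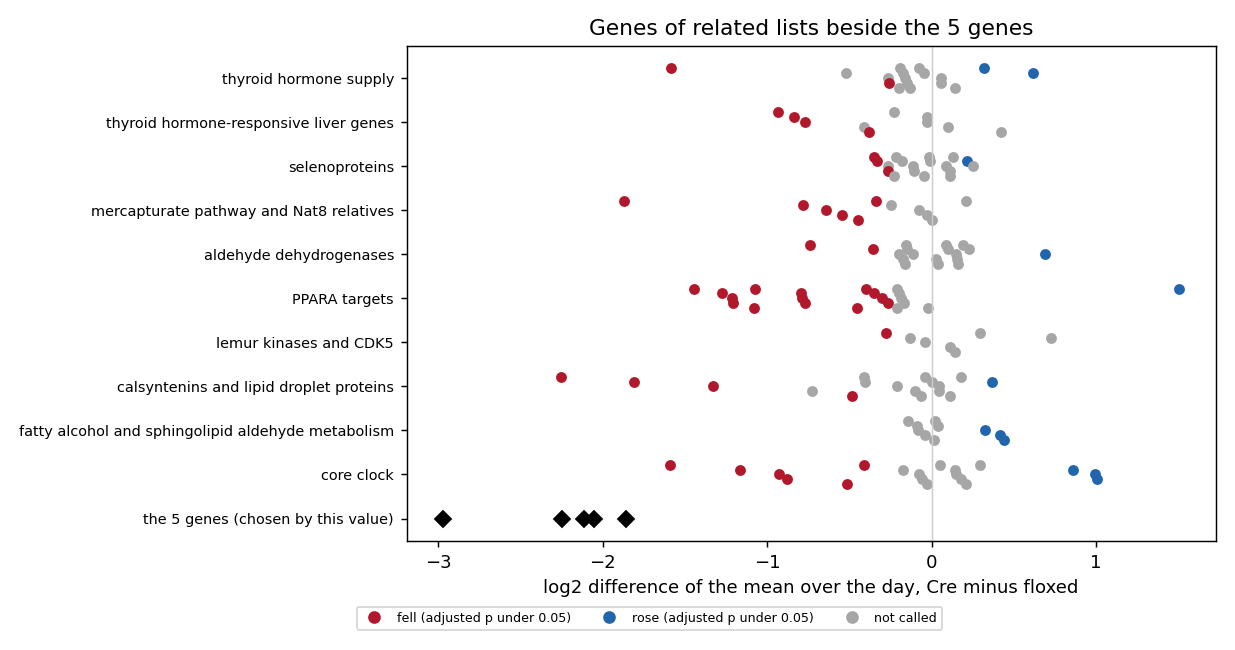
Cre minus floxed log2 difference of the mean over the day for the genes of 10 related lists (1 row each) and the 5 genes (black diamonds, last row); each point is the brightest probe of 1 gene, red where it fell and blue where it rose at a limma adjusted p under 0.05, grey where it was not called. Of the list genes only Cidec at -2.26 and Nat8f5 at -1.87 reach the range of the 5 genes, -2.97 to -1.86.

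Since Clstn3b is an adipocyte product and Aatk and Clstn3 are best known from neurons, markers of those cells were set beside them. Sums of normalised Cy5 signal are over all markers on the array, also those not tested. Of 6 adipocyte markers tested 2 fell and 1 rose, and the sum over 7 was 3815 to 17285 in floxed and 3283 to 6711 in Cre livers. Of 5 neuronal markers tested 1 rose and 0 fell, with sums over 7 of 1061 to 1831 and 1021 to 2224. Of 5 markers of the proximal tubule, a kidney cell rich in Nat8, 1 fell and 0 rose, with sums over 6 of 706 to 1252 and 744 to 931. Of the markers on the array 2 of 7 adipocyte, 3 of 7 neuronal and 2 of 6 proximal tubule markers were well above background in Cy5 on all 24 arrays. None was below it on every array. Among other liver cells 2 of 5 cholangiocyte markers rose and 0 fell, with sums of 5418 to 15254 in floxed and 11302 to 47734 in Cre livers. Of 8 stellate cell and fibroblast markers 2 rose and 0 fell, with sums of 18163 to 36509 and 22431 to 36318, leaving out 1 array with a missing value. Of 7 endothelial markers 1 rose and 0 fell, of 2 red cell markers 1 fell and 0 rose, and of 8 macrophage and 5 lymphocyte markers 0 were called. The part of these cells in the levels of the 5 genes was not tested, and in these bulk samples fewer cells of a type and less RNA per cell cannot be told apart.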

How the data were processed

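The authors deposited scanner output, made per the file headers with Feature Extraction 9.1.3.1, which gives for 45018 spots a mean and a background intensity per channel. The authors also deposited a normalised log10 ratio of the channels, both there and in the series matrix. From the mean intensity, log2 ratios were made with normexp (offset 50) and loess in which the 1639 control spots had no weight. Outlier spots were dropped. A filter asked for Cy3 well above background on 4 or more arrays and kept 27847 of 41174 probes. limma 3.58.1 (R 4.3.3, data.table at version 1.17.8, statmod 1.5.0) fitted age, genotype, a 24 h cosine and sine, and their interaction with genotype, and in a further fit genotype by age. Calls are at a Benjamini-Hochberg adjusted p under 0.05 over all probes. The fit was tested on simulated data. The brightest probe stands for a list gene. The labels name pools, not single mice, so p-values measure the spread between arrays. Members, lists and tests were chosen with earlier results of these data known. Named beside the members are Arntl, the 3 genes most like each member, the gene just below the smallest chosen difference, the called genes with the 4 smallest p of each list, and any gene of the thyroid supply, mercapturate, lemur kinase and calsyntenin lists. A gene open to naming is not reported here. Loci and promoter windows are from RefSeq on GRCm38.p6. The 12 pairs are arrays of one age and time, not of one animal; 11 of them deviated together from their group means (r over 0.1, all from -0.06 to 0.54), and the pair was used as a block in an alternative.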

Additional observations from a re-analysis of the deposited data

Results flagged for a closer look

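Of the 20 sets of 6 arrays of a gene, genotype and age, 5 held an array that stood far from the nearest of the others, where chance gives about 1 in 20. In Cre livers of 10 weeks the ZT16 array was high for Dio1 (-0.24, next highest -1.10) and for Aldh3a2 (-0.35, next highest -1.35). In Cre livers of 20 weeks the ZT8 array was high for Nat8 (-0.10, next highest -1.30) and for Aatk (0.050, next highest -1.22). In floxed livers of 20 weeks the ZT0 array was high for Clstn3 (2.75, next highest 2.16). The Clstn3 genotype difference changed between the ages by -1.06 ± 0.25 (limma adjusted p = 0.019).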

How the results depend on the processing

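Under the dyes as labelled the genotype differences reversed to 2.05 for Dio1, 2.97 for Nat8, 2.25 for Aldh3a2, 2.11 for Aatk (also the median of the 5) and 1.86 for Clstn3. All other settings kept the direction for all 5, with medians from -2.37 to -1.99, which the choice of the genes on these same arrays makes likely. No setting called a rhythm of a member in either genotype or a difference in rhythm. For the age difference the count of called members was 3 and stayed between 2 and 4. The share of all probes called for it ran from 9.09% (slide as a random block) to 41.5% (median centring), against 30.5%. The change with age, called for 1 of 5, was called for 0 with the deposited log10 ratio, the slide as a fixed or random block, the scan date as a block, Cy5 alone, and without the 2 Cre arrays that stood apart (chosen after seeing the data), for 2 with 1 probe per gene and with the pairs as a replicate block, and for 4 with median centring. Leaving out single arrays gave 1 to 2, with Clstn3 called in all 24 (adjusted p from 0.0026 to 0.042) and Dio1 called in 5. The Nat8 age difference lost its call in 8 of 24. Median centring gave 42.1% of probes called for the change with age, the replicate block 18.4%, Cy5 alone 0.549% and the scan date 0.00718%, against 9.05%. The genotype difference ran from 3.24% (median centring) to 36.2% (array weights) of probes called, against 21.7%. The replicate block changed no other call of a member. With 1 array per genotype, age and time, small rhythms may be missed.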
